A study of Caenorhabditis elegans with 2 samples.

Results

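MicroRNA genes were examined for binding of the BED-type zinc finger protein BED-2 in whole young adult Caenorhabditis elegans. The members are the 261 genes on the nuclear chromosomes that the Ensembl annotation of assembly WBcel235 records as microRNA genes, out of 46890 genes of all kinds. A gene here is the primary record, usually the hairpin precursor, and not a mature arm. These records have a median length of 95 bp and run from 52 to 1732 bp, the longest being let-7. For each gene the highest signal was taken among candidate peaks whose summit lay within 1000 bp of the gene start. The study is 1 group of 2 biological replicates of chromatin immunoprecipitation and sequencing (ChIP-seq) with an antibody against green fluorescent protein, after sonication. Animals of strain RW12335 were 63 hours old and all carried a genome-edited allele at bed-2 on chromosome III, st12335[TY1::EGFP::3xFLAG::bed-2], so both replicates express the tagged protein. No untagged animals, input or second condition were analysed here, and the whole animal was the labelled sample, so values are averages over its tissues. The lists hold no RNA values, so the labelled stage and tissue could not be checked against marker genes.

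MicroRNAs are short RNAs cut from hairpin precursors by Drosha and then Dicer, and loaded onto Argonaute proteins that they guide to messenger RNAs. Pairing between the seed, bases 2 to 8 of the mature microRNA, and the target largely decides which messages are repressed, so genes with a shared seed are treated as a family. The first microRNAs, lin-4 and let-7, were found in this worm as regulators of the timing of larval cell fates, and the mir-35 and mir-51 families are known to be needed for embryonic development.

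The mature microRNAs of the families that held the strongest peaks are shown first, with the seed in capitals, as the RefSeq annotation of the same assembly gives them. RefSeq gave a mature sequence for 260 of the 261 genes. In the mir-35 family, mir-35 and mir-41 are the first and last genes of a cluster on chromosome II that lay beside a strong peak, and mir-42 has the same seed at another place on that chromosome.
mir-35: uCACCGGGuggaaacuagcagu
mir-38: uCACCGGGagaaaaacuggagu
mir-41: uCACCGGGugaaaaaucaccua
mir-42: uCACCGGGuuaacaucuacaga
In the mir-51 family, 6 genes share a seed over 3 separate loci, and their highest peaks ranged widely.
mir-51: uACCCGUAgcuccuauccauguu
mir-52: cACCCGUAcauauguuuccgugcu
mir-53: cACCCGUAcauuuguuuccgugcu
mir-54: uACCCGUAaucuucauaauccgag
mir-55: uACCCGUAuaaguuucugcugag
mir-56: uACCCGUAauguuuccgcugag
The DNA under the summit was read next, because these 4 peaks gave the mir-35 and mir-51 families their highest values. Each stretch is 201 bases with the summit at base 101, written on the strand of the microRNA genes. Capitals mark ACGCGC or its reverse complement at mir-35, and the reverse complement of GTACAC at mir-51. They come from the RefSeq genome of assembly WBcel235 at II:11537253-11537453 on the plus strand, IV:11026059-11026259 on the minus strand, IV:14033709-14033909 on the plus strand and X:13145130-13145330 on the minus strand.
mir-35 window: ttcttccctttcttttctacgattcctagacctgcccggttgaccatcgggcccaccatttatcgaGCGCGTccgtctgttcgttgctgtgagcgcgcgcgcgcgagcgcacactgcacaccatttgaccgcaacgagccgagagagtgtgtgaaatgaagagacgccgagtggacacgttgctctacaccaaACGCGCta
mir-51 window: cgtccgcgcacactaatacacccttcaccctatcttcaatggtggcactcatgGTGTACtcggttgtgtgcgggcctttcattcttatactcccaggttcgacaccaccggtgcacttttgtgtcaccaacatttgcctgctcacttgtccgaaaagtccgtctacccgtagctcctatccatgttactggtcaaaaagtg
mir-52 window: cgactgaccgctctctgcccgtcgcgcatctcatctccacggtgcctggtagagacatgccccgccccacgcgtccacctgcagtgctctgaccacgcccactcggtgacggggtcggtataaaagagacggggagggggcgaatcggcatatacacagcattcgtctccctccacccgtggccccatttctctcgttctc
mir-54 window: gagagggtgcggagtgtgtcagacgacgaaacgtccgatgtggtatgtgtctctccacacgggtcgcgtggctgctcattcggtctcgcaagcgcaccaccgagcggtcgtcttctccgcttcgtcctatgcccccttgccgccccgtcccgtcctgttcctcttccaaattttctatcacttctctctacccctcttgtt
The mir-35 stretch has ACGCGC once as written and once as its reverse complement, and an unbroken run of 13 alternating G and C bases spans its summit, from base 93 to base 105. Bases 164 to 186 of the mir-51 stretch are the mature mir-51 itself, so the peak reaches into the hairpin. G and C made up 57.2% of the stretch at mir-35, 50.7% at mir-51, 63.2% at mir-52 and 58.7% at mir-54. The median was 39.8% over the windows of all 82301 candidate peaks. It was 46.8% over the 615 peaks of the authors' conservative list, described below, and 45.3% over the 5 of these at microRNA genes. Among microRNA genes that list also held peaks at mir-4932 (45.3%), mir-1824 (42.8%) and mir-354 (36.3%). The 4 stretches shared no run longer than 9 bases on the same strand.

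Candidate peaks came from a ranked list that the authors made by comparing the replicates. Each peak carries the signal given by the authors' peak caller, in arbitrary units, and a global irreproducible discovery rate (IDR). In this list the IDR measures how alike a peak ranks in both replicates. The IDR in a replicate's own list comes from that replicate alone. It therefore cannot measure likeness between the replicates and is a different quantity. Of 82301 ranked peaks, 615 are in the authors' conservative list, whose members have a global IDR of 0.01 or lower, a −log10 of at least 2. A summit in that list is called a conservative summit here, and any other summit a ranked one. All 176 ranked peaks used for microRNA genes are 320 bp wide.

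A conservative summit lay within 1000 bp of 11 of the 204 microRNA genes that had any ranked summit (5.39%), against 893 of 30766 genes of all kinds (2.9%). These 11 genes sit on only 5 peaks, because 7 of them are the mir-35 to mir-41 cluster. Counting each peak once, microRNA genes had 5 conservative peaks beside 176 distinct highest peaks, and all genes had 453 beside 20090. That is a smaller difference than the one per gene. Counted against all 261 microRNA genes the share was 4.21%, and against all 46890 genes it was 1.9%. Among the other short noncoding RNA genes, 53 of 308 snoRNA genes (17.2%), 75 of 578 tRNA genes (13.0%) and 14 of 109 snRNA genes (12.8%) had a conservative summit, all higher shares, while 38 of 5574 piRNA genes (0.682%) did, a lower one. In the authors' optimal list 11 of 211 microRNA genes (5.21%) had a summit, against 2.98% of all genes. At a global IDR of 0.001 or lower there were 9 of 204 (4.41%), against 1.02% of all genes. Those 9 genes sit on 3 peaks, and 7 of them are the same cluster. No test was run on these shares, and genes that share a peak are not independent.

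**Figure D1:**
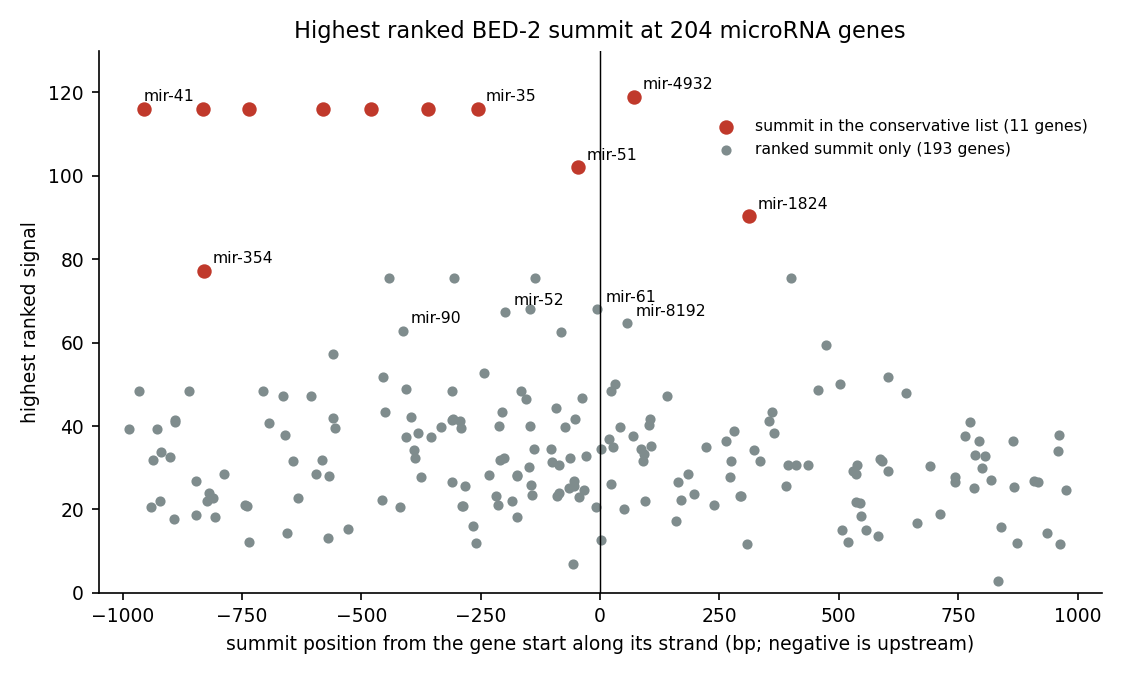
Highest ranked signal (vertical axis, arbitrary units) against the position of its summit from the gene start along the gene's strand (horizontal axis, bp), 1 point for each of 204 microRNA genes. The 11 genes with a conservative summit lie at 77.2 or above, and the 7 points in a row at 116 are mir-35 to mir-41 on 1 peak.

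The mir-35 to mir-41 cluster, which encodes 7 of the 8 members of the mir-35 family, had the second highest signal among the peaks of microRNA genes. The hairpins are at II:11537608-11538404 on the plus strand, inside an intron of Y62F5A.9, which is transcribed from the other strand. The peak, II:11537193-11537512, ranked 132 among all candidates with a signal of 116 and a −log10 global IDR of 3.42. Its summit lay upstream of all 7 genes, 255 bp before mir-35, 360 bp before mir-36, 480 bp before mir-37, 580 bp before mir-38, 736 bp before mir-39, 831 bp before mir-40 and 955 bp before mir-41. Signal was 68.1 in replicate 1 and 52.3 in replicate 2, well above the median of 14.0 over all of replicate 1's candidates and 16.2 over replicate 2's. Both replicates therefore ranked this peak high, but it is in the thresholded list of replicate 1 and not in that of replicate 2, where its −log10 global IDR was 1.88. The nearest annotated start is not a microRNA but the noncoding RNA Y62F5A.16, 174 bp from the summit and on the same strand. Another conservative summit, with a signal of 249, lies 2628 bp upstream of mir-35.

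The eighth member, mir-42, lies elsewhere on chromosome II with mir-43 and mir-44. Its highest ranked signal was 22.0 at 823 bp upstream, with a −log10 global IDR of 0.16. A weaker summit lay closer, 76 bp upstream with a signal of 20.8. In the replicates' own lists the highest signal within 1000 bp of mir-42 was 15.5 in replicate 1 and 16.0 in replicate 2. The shared seed therefore did not go with a shared signal, and mir-42 had a lower value than the cluster in both replicates.

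Of the 6 mir-51 family genes, mir-51 alone had a conservative summit. The hairpin is at IV:11026013-11026112 on the minus strand in no protein-coding gene, and the peak, IV:11025999-11026318, had its summit 47 bp upstream of the start. Signal was 102, with 52.7 in replicate 1 and 47.9 in replicate 2, and the −log10 global IDR was 3.09. The signals of the replicates differed little here, but only replicate 1 kept the peak in its own thresholded list. The −log10 global IDR was 2.54 in replicate 1's own list and 0.1 in replicate 2's. Another, weak summit of the conservative list, with a signal of 11.4, lay 252 bp upstream. The noncoding RNA F36H1.17 starts 60 bp from the summit, slightly farther than mir-51. The neighbouring family member mir-53 starts 1532 bp from the same summit, on the same strand, and its own highest summit within 1000 bp reached 36.5 at 794 bp downstream. That peak had unequal matched values of 33.8 and 6.41. In the replicates' own lists the highest signal within 1000 bp of mir-53 was 33.8 in replicate 1 and 29.2 in replicate 2.

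The other 4 family members had ranked summits below the threshold. At mir-54, mir-55 and mir-56, a tandem of hairpins in an intron of F09A5.3 on the X chromosome, 1 peak of signal 75.5 lay 136 bp upstream of mir-54, 306 bp upstream of mir-55 and 443 bp upstream of mir-56. The same peak lay 400 bp downstream of the start of mir-55b, which is annotated on the opposite strand over mir-55. Its matched signals in the lists compared were 49.4 and 26.2, and its −log10 global IDR was 1.62. In the other series ranked list it was 0.91, and in replicate 1's own list it was 0.21. In replicate 2's own list the highest peak within 1000 bp of mir-54 had a signal of 28.1 and a −log10 global IDR of 0.09. That signal is not a matched value of the upstream peak, so it may belong to another summit. A further ranked summit of 59.8 stood 497 bp downstream of the mir-54 start, with matched signals of 31.6 and 28.1. At mir-52, on chromosome IV, the highest summit was 199 bp upstream with a signal of 67.3, 36.0 in replicate 1 and 28.4 in replicate 2, and a −log10 global IDR of 1.66, with 1.92 in the other series ranked list, 1.66 in replicate 1's own list and 0.55 in replicate 2's. Summits of 63.7 at 908 bp upstream and 44.3 at 14 bp downstream flanked it. Short noncoding RNAs start nearer to both summits, F09A5.11 at 41 bp and Y37A1B.333 at 57 bp.

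**Figure D2:**
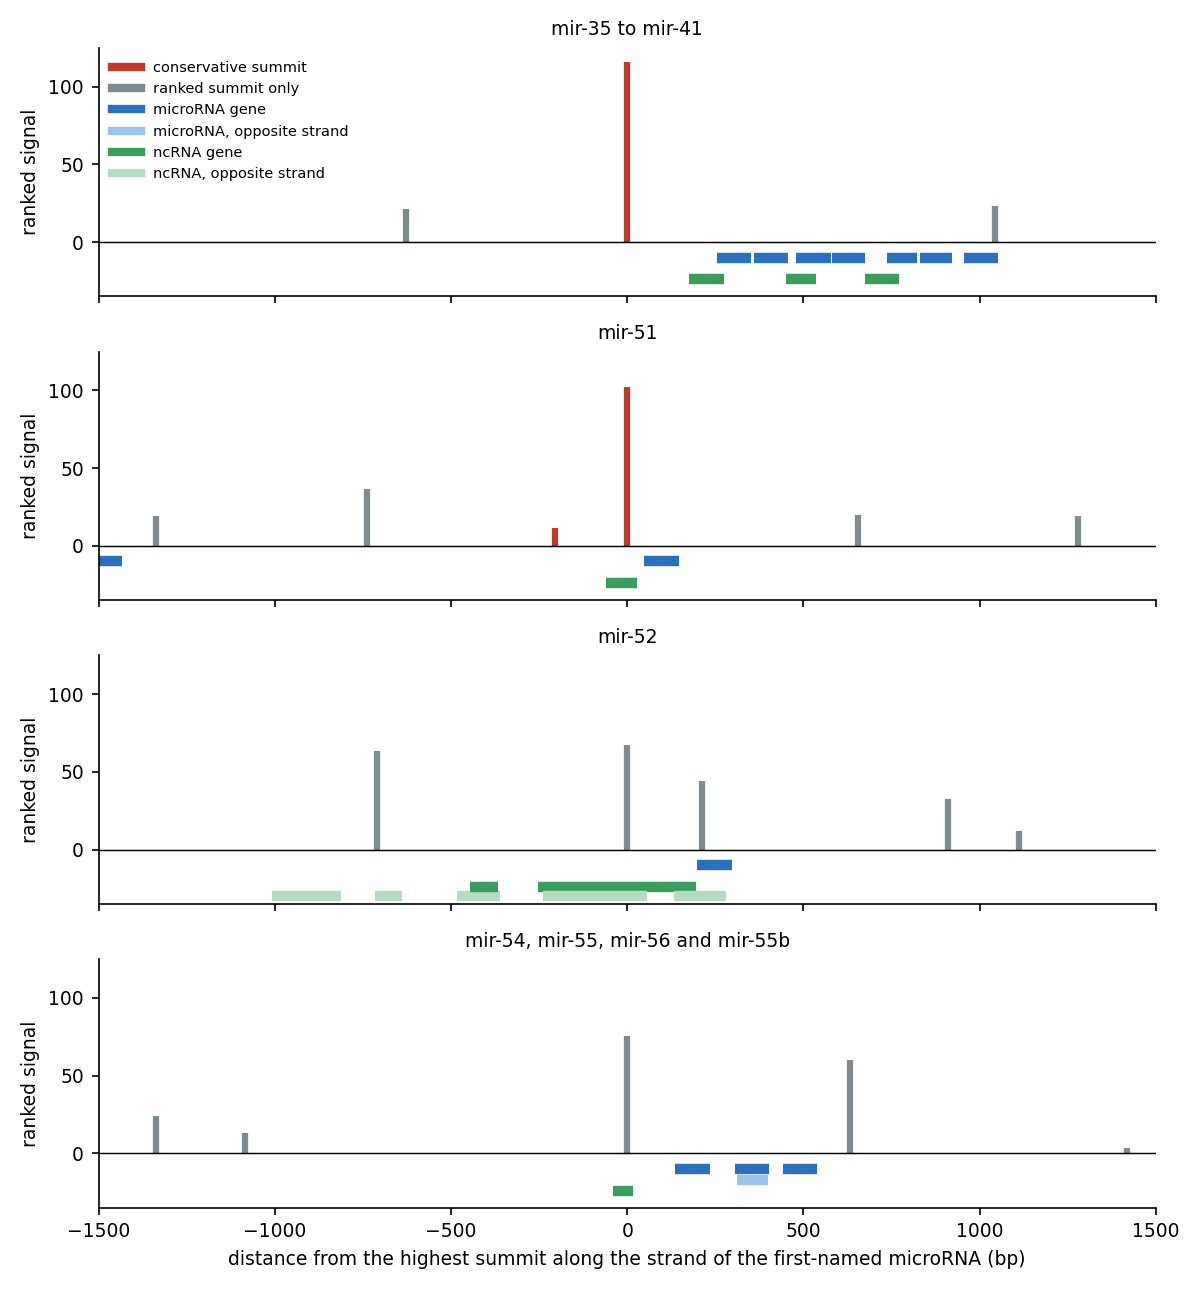
Ranked signal of every candidate summit (vertical lines, arbitrary units) by distance in bp from the highest summit, along the strand of the first-named microRNA gene, at 4 loci of the mir-35 and mir-51 families. Blocks below each axis are microRNA and other noncoding RNA genes on either strand. The highest lines are 116 at mir-35, 102 at mir-51, 67.3 at mir-52 and 75.5 at mir-54.

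The other 3 microRNA genes with a conservative summit are all on chromosome I. The highest value of any microRNA gene was at mir-4932, at I:9512307-9512416 on the plus strand, with a signal of 119 and a summit 72 bp downstream of its start. Replicate 1 had 57.5 and replicate 2 had 65.8 there, and mir-4932 was the only microRNA gene in the thresholded lists of both replicates. The start of klp-16, a kinesin-like motor protein gene, is 73 bp from that summit, 1 bp farther than the microRNA's own. At mir-1824, antisense within an intron of Y87G2A.18, the signal was 90.3, with 41.0 in replicate 1 and 42.1 in replicate 2. Its summit lay 312 bp downstream of the microRNA's start but 23 bp from the start of Y87G2A.18. The mature mir-1824 shares its seed with mir-34 and mir-4933, whose highest signals were 39.7 and 36.9, both without a conservative summit.

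The weakest of the 5 conservative peaks was assigned to mir-354, which overlaps an exon of rps-20, a gene for a protein of the small ribosomal subunit, on the same strand. Signal was 77.2, with 40.4 in replicate 1 and 37.5 in replicate 2, and the −log10 global IDR was 2.38. The summit stood 830 bp upstream of mir-354 and 179 bp from the start of ekl-4. For mir-1824, mir-354 and the mir-35 to mir-41 cluster, then, another annotated start is nearer to the summit. Only mir-4932 and mir-51 have the nearest start, by 1 bp and by 13 bp.

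Over the 5 conservative peaks, the replicates differed by a factor of 1.03 to 1.30, and every value was 37.5 or higher. The IDR behind that list compares the replicates, so this likeness is in part fixed by the choice. The 10 highest microRNA genes without a conservative summit are the 4 genes at mir-54 with mir-61, mir-250, mir-52, mir-8192, mir-90 and mir-4812. The gap between replicates varied among them, being widest at mir-61 and mir-250 and narrowest at mir-52 and mir-4812. At mir-61 and mir-250 on chromosome V, with a summit 6 bp upstream of mir-61 and a signal of 68.0, the highest signal within 1000 bp was 16.7 in replicate 1 and 49.7 in replicate 2. At mir-8192, in an intron of the folliculin gene flcn-1, signal was 64.6, with 25.1 in replicate 1 and 44.5 in replicate 2. At mir-90, in an intron of K01F9.2, it was 62.8, with 23.3 in replicate 1 and 42.8 in replicate 2. At mir-4812, in an intron of piki-1, a phosphoinositide 3-kinase gene, it was 62.7, with 28.2 in replicate 1 and 36.9 in replicate 2. That last gene had the highest −log10 global IDR below the threshold, 1.87. Replicate 2 was the higher one at mir-61, mir-8192, mir-90 and mir-4812, and replicate 1 at mir-54 and mir-52.

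**Figure D3:**
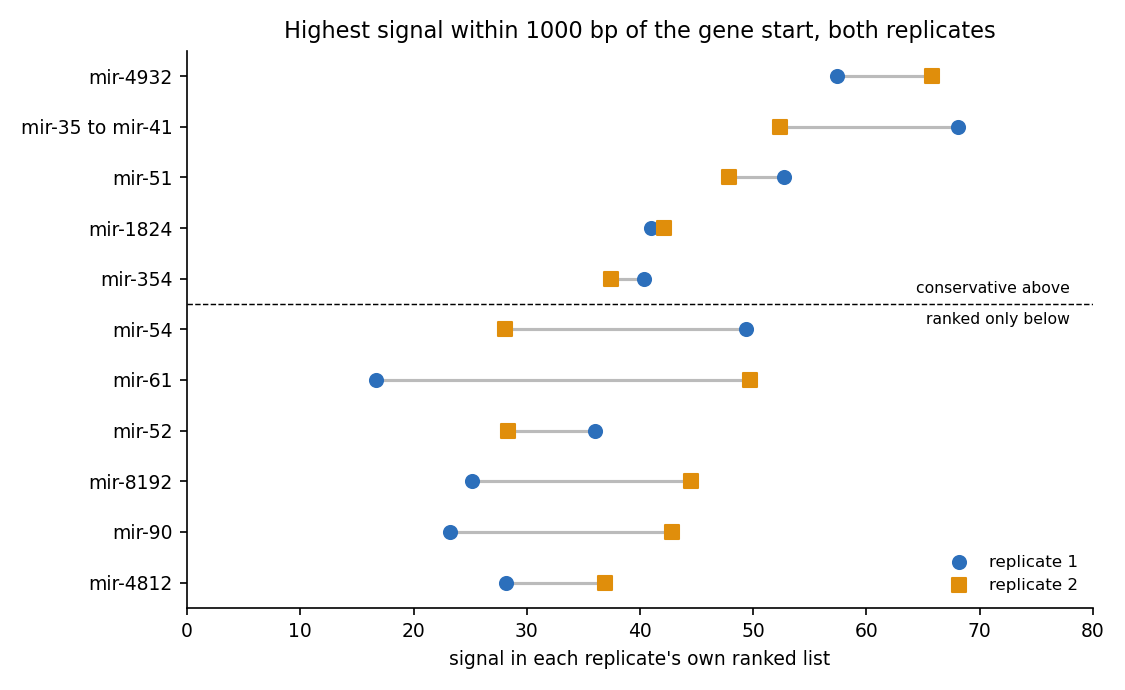
Highest signal within 1000 bp of the gene start in the own ranked list of replicate 1 (circles) and replicate 2 (squares), for the 5 conservative peaks (above the dashed line) and for mir-54, mir-61, mir-52, mir-8192, mir-90 and mir-4812 (below it). Conservative peaks lie at 37.5 or higher in both replicates, while at mir-61 the values are 16.7 and 49.7.

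The replicates' own lists gave different counts. A summit of the thresholded list of replicate 1 lay at 9 of 187 microRNA genes (4.81%), against 1.37% of all genes. Those 9 genes sit on 3 peaks, and most of them are the mir-35 to mir-41 cluster. With replicate 2 alone, a summit of its thresholded list lay at 1 of 188 microRNA genes (0.532%), against 1.54% of all genes. That gene was mir-4932. The 2 lists hold 238 and 256 peaks. The cause of the different counts was not tested. The median signal at microRNA genes was 1.09 times that at all genes in replicate 1 and 1.06 times in replicate 2.

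Matched signals of the ranked list, whose columns do not say which replicate they belong to, differed by more than 2-fold at 47 of the 176 peaks of microRNA genes (26.7%), against 23.5% of all ranked peaks. Their rank correlation was 0.17 over the 176 peaks and 0.2 over all ranked peaks, as a description over peaks that share the same 2 libraries. Of 193 microRNA genes without a conservative summit, 155 had a −log10 global IDR under 0.5 and 15, on 9 peaks, had one between 1 and 2. Most ranked values at microRNA genes are therefore low-reproducibility candidates. So is the ranked list as a whole, where 635 of 82301 peaks had a −log10 global IDR of at least 2.

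Over the 204 genes, the highest ranked signal had a median of 31.9, with quartiles of 23.4 and 41.6 and a range from 2.7 to 119. Over all 30766 genes with a ranked summit, the median was 28.7 with quartiles of 21.6 and 37.7. Counting each peak once gave 31.7 for microRNA genes and 28.1 for all genes. A signal of 40 or more was reached by 60 microRNA genes (29.4%), against 20.7% of all genes. The medians were 39.1 for snoRNA genes, 45.6 for tRNA genes and 37.8 for snRNA genes, above that for microRNA genes, and 24.6 for piRNA genes and 27.5 for lincRNA genes, below it. In the ranking of all candidates, 6 peaks that serve 15 microRNA genes were among the top 500, and 11 peaks that serve 21 genes were among the top 1000. The same counts were not made over all genes, so these have no background.

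**Figure D4:**
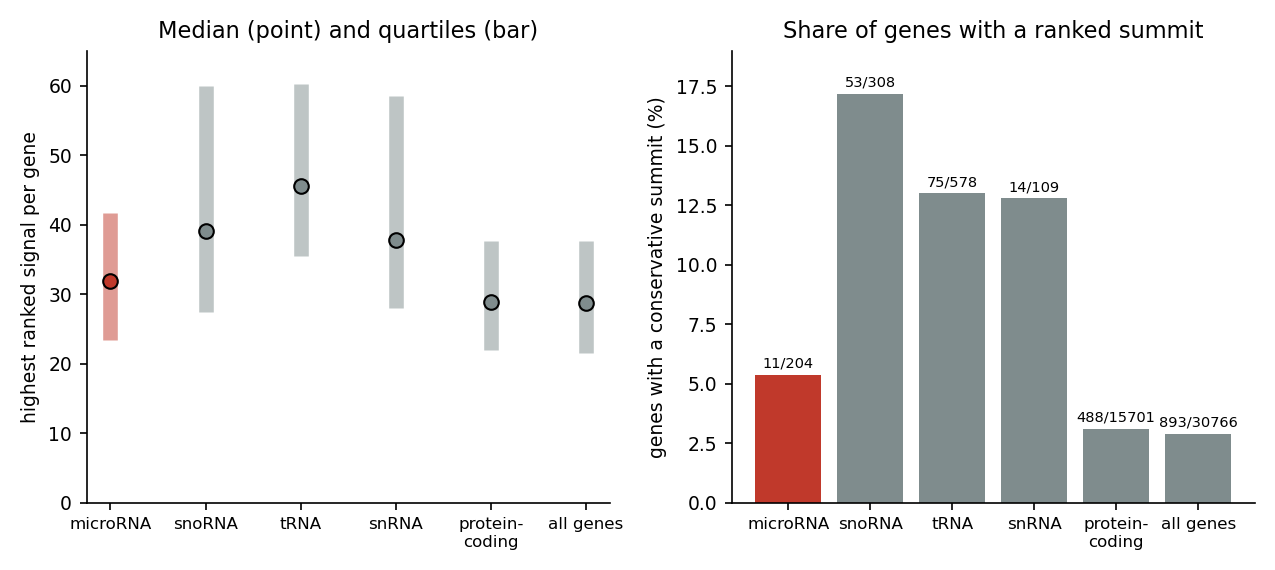
Left, median (point) and quartiles (bar) of the highest ranked signal per gene for microRNA genes and for snoRNA, tRNA, snRNA, protein-coding and all genes. Right, percentage of genes with a ranked summit that had a conservative one, with the numbers of genes above the bars. MicroRNA genes have 5.39%, from 11 genes on 5 peaks, against 17.2% for snoRNA genes and 2.9% for all genes.

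A ranked summit was found for 78.2% of microRNA genes and for 65.6% of all genes, a share that includes 15363 piRNA genes at 36.3%. Among protein-coding genes it was 78.6%, and among snRNA, snoRNA and tRNA genes it was 84.5%, 89.0% and 94.4%, so the microRNA share was not above those classes. The other 57 microRNA genes had none within 1000 bp, and their nearest ranked summit was at a median of 2437 bp and at most 14132 bp. Of these, 27 had no summit in the own ranked list of either replicate, 28 had one in 1 replicate and 2 had one in both. By the distance to the nearest ranked summit, those just inside the limit of 1000 bp were mir-8198 at 936 bp with a signal of 14.2 and mir-4926, also at 936 bp, with 31.8, mir-251 at 958 bp with 34.1 and mir-785 at 963 bp with 11.7. Just outside were mir-1820 at 1003 bp with 27.1, mir-8212 at 1006 bp with 40.4 and mir-4927 at 1011 bp with 36.2. None of these summits was conservative. By the highest summit, which gives the signals above, those just inside were mir-790 at 987 bp with 39.3, mir-4920 at 975 bp with 24.7 and mir-66 at 966 bp with 48.4, and the conservative summit of mir-41 followed close by at 955 bp.

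The summit lay upstream of the start at 116 of the 204 genes (56.9%), against 47.4% of all genes. The share was similar for snoRNA (57.8%) and lincRNA genes (57.6%), and lower for piRNA (48.9%), tRNA (41.0%) and snRNA genes (33.0%). The median absolute distance was 388.5 bp, against 460 bp over all genes. It was shorter for snoRNA (347.5 bp), snRNA (142 bp) and tRNA genes (90.5 bp). For lincRNA and piRNA genes it was longer, 463 bp and 535 bp. Genes on a shared peak were each counted in these values. The summit fell inside the hairpin record itself at 16 genes. Another gene's start was nearer to the summit at 88 microRNA genes (43.1%), against 38.4% of all genes. That nearer start belonged to a noncoding RNA gene without a more specific class in 32 cases, a protein-coding gene in 22 and another microRNA gene in 18. In all, 18 peaks were shared by 46 microRNA genes. A peak within 1000 bp is therefore a statement of distance and does not tie BED-2 to the microRNA gene rather than to its neighbour.

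The genes that time larval development had ranked summits but no conservative one, in 5 of 5 cases. With 2.9% of all genes called, none among 5 is near that share. At lin-4, within an intron of F59G1.4, signal was 51.8 at 455 bp upstream, with matched values of 28.1 and 24.8 and a −log10 global IDR of 1.11. That IDR value was 0.416 in the other series ranked list, and replicate 2's own ranked list held no summit within 1000 bp of lin-4. The noncoding RNA F59G1.12 starts nearer, 267 bp from that summit. At let-7, whose record covers the long primary transcript, signal was 23.8 at 197 bp downstream. Its sisters of the same seed had 20.0 at mir-48, 41.6 at mir-84 and 37.4 at mir-241. Within this group lin-4 and mir-84 were highest and let-7 and mir-48 lowest, all of them below the conservative peaks.

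Among genes known for roles in particular tissues, 9 of 11 found in the annotation had a ranked summit and none a conservative one, with a median of 39.7. None among 9 is again near the 2.9% of all genes. Signal was 37.5 at mir-1, which is expressed in muscle, and 41.9 at mir-124, which is expressed in sensory neurons. The matched values at mir-124 were 5.29 and 34.4, so 1 replicate carried that signal. At mir-34, known from responses to DNA damage, it was 39.7, and at mir-71, which promotes long life, it was 39.5. The others had 41.7 at mir-2, 42.1 at mir-87, 34.2 at mir-50, 40.03 at mir-57 and 13.2 at mir-60. There was no ranked summit at lsy-6, which sets the left-right difference of the ASE taste neurons, nor at mir-79. In the mir-58 to mir-82 group, which is abundant in worms, mir-58a had 48.6, mir-80 had 46.5, mir-58b 28.4, mir-81 24.6 and mir-82 12.3, again with no conservative summit.

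Grouping by seed gave 16 families of 3 or more genes. The mir-35 family had the highest median signal, 116, from 8 genes on 2 peaks, and the mir-51 family was next with 75.5 from 6 genes on 4 peaks. Next came the family of mir-63, mir-64, mir-65, mir-66 and mir-229, with a median of 48.4. In it mir-229, mir-64, mir-65 and mir-66 share 1 peak in an intron of gcn-1, a regulator of translation, with a −log10 global IDR of 1.83. The let-7 seed family of 5 genes had a median of 23.8. Family medians repeat the same peak where genes are clustered, so those of the mir-35 and mir-63 families rest mainly on 1 peak each. The mir-51 family median of 75.5 is likewise the value of the ranked peak shared by mir-54, mir-55 and mir-56.

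**Figure D5:**
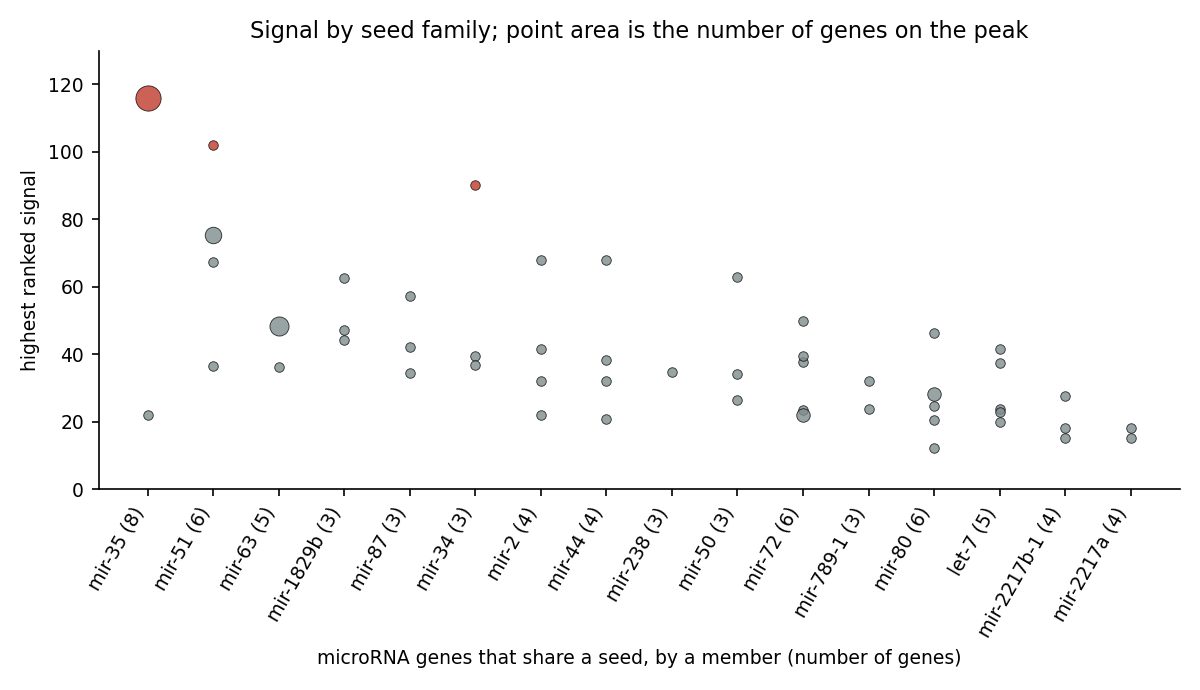
Highest ranked signal (vertical axis, arbitrary units) of each peak at microRNA genes in the 16 seed families of 3 or more genes, named by a member with the number of genes in brackets. Point area grows with the number of genes on that peak, red points are conservative summits, and genes with no ranked summit are not drawn. The mir-35 family has 7 genes at 116 and 1 at 22.0.

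The genes named mir-1 to mir-90, which were among the first to be found, had a higher median than the genes with higher numbers. It was 40.8 over 50 genes with a ranked summit, or 37.9 counting each peak once. The 61 genes with numbers from 124 to 800 had a median of 31.7, and the 90 with numbers of 1018 and over had 29.6. The 3 genes with other names and a ranked summit, lin-4 and let-7 among them, had a median of 47.2. Without the conservative peaks the medians over peaks were 37.0 for mir-1 to mir-90, over 34 peaks, and 28.5 for those of 1018 and over, over 83 peaks. Conservative summits were held by 8 genes of the first group, on 2 peaks, 1 of the second and 2 of the third. These differences were not tested.

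By host gene, the median was 33.7 for 66 microRNA genes inside a protein-coding gene on the same strand, 35.5 for 30 overlapping one only on the other strand and 31.5 for 108 outside protein-coding genes. Of the 11 genes with a conservative summit, 8 were in the antisense class, on 2 peaks. Counting each peak once left medians of 31.8 for the same strand, 27.4 for antisense and 31.7 for none. The per-gene antisense median thus repeats shared peaks. These are the peak of mir-35 to mir-41 and that of mir-54, mir-55 and mir-56, which are antisense to F09A5.3. By chromosome the medians were 31.8 on I, 36.9 on II, 43.3 on III, 28.3 on IV, 31.1 on V and 30.7 on X. Counting each peak once, they were 31.8, 32.0, 38.2, 28.3, 31.1 and 30.7 in the same order. The per-gene values on II and III therefore in part repeat shared peaks. Over genes of all kinds with a ranked summit, the medians were 30.8, 29.4, 30.9, 26.3, 28.0 and 30.5. The X chromosome holds 74 microRNA genes, more than any other, and none of the 53 with a ranked summit had a conservative one, where 146 of 4996 X-linked genes of all kinds did. There was none either among 21 on III and 22 on V, where 120 of 3079 and 171 of 6278 genes of all kinds had one. At such shares few or none would be called in groups of this size.

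Of 22 genes that make, carry or help microRNAs and were found in the annotation, 18 had a ranked summit and 2 a conservative one, where 2.9% of all genes with a ranked summit did. At nhl-2, which encodes a TRIM-NHL protein that works with the microRNA complex, signal was 131 with matched values of 63.1 and 79.2, 838 bp upstream of the gene start. At vig-1, which encodes a component of the RNA-induced silencing complex, it was 97.4 with matched values of 53.9 and 41.9, 401 bp upstream. In both cases another start was much nearer, F26F4.14 at 27 bp for nhl-2 and a piRNA at 97 bp for vig-1. The Argonaute gene alg-2 had 61.3, close to its start at 32 bp upstream, with a −log10 global IDR of 1.73. The other Argonaute gene alg-1 had 25.6, the Dicer gene dcr-1 37.5 and the Drosha gene drsh-1 39.5. None of 10 known target genes, 8 of them with a ranked summit, had a conservative one, which is near the 2.9% of all genes. The highest, 48.8, was at lin-14, the target of lin-4.

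Short motifs were counted in the 201-base windows around the summits, on both strands. CTCCGCCC, a motif described upstream of worm microRNA genes, was in 8 of the 176 windows at microRNA genes (4.55%), against 0.959% of all ranked windows and 1.46% of conservative ones. It was in none of the 5 conservative peaks of microRNA genes. The 9 genes on those 8 peaks were mir-2, mir-72, mir-80, mir-81, mir-247, mir-272, mir-795, mir-797 and mir-4931, with signals from 22.8 to 46.5, and the summit was upstream at 8 of the 9. This motif was described at microRNA genes, so the comparison is not independent of the choice of motif. The part of that choice in the higher share was not tested. The other windows were not matched for nearness to such genes, so the comparison says nothing about BED-2 itself. For ACGCGC the count was 9 of 176 (5.11%), and the share was 3.58% over all ranked windows and 19.5% over conservative ones. GTACAC was in 16 of the 176 (9.09%), against 5.64% of all and 14.5% of conservative ones. The median share of G and C was 43.0% in the 176 windows, against 39.8% in all ranked windows, and its part in these motif shares was not tested. A match is a string of letters and not a binding site.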

How the data were processed

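Both samples are biological replicates of 1 group per the labels. The authors deposited 8 peak lists on ce11, 4 for the series and 2 for each replicate, and no read counts, so depth is unknown. Per the text deposited beside the samples, the series lists use both replicates. No source used here names the aligner or the caller. The deposited columns were the score derived from the global IDR, the signal, the −log10 global IDR and the summit offset. Matched-signal columns in 1 series list could not be tied to a replicate by name, and 2 further columns in the other ranked list were not used. Replicate values are the highest in each replicate's own ranked list within 1000 bp.

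Starts came from the Ensembl GTF of WBcel235 and sequence from RefSeq, the same assembly as ce11, and no peak reached past the end of its reference chromosome. Scripts used Python 3.11.15, numpy 2.4.6 and pandas 2.3.3, and the assignment was tested on simulated data, where 100 of 100 planted peaks were assigned as made. The members, lists and motifs were chosen with earlier results of these data known. Genes named were all with a conservative summit, the 10 highest without, the listed families, the 3 on each side of the distance limit and the pathway genes with a conservative summit. Other genes were named after their values were seen. No test of the members was run. Alternatives changed the distance, the list, the IDR, the replicates and the rule for nearer starts.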

Additional observations from a re-analysis of the deposited data

How the results depend on the processing

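The count of 11 microRNA genes with a conservative summit was 6 at 500 bp, 18 at 2000 bp, and between 1 and 9 with either replicate left out. The 1 was without replicate 1, and the cause was not tested. A wider limit can only raise the count for genes of any kind. The share over all genes was not computed at 500 bp or 2000 bp. Counting only genes with the nearest start gave 2, and counting same-strand genes chained within 1000 bp once gave 5. These last counts were chosen after seeing the data. The count stayed at 9 to 11 with the optimal list, with a global IDR of 0.001 and with peak overlap. The count of 204 genes with a ranked summit ranged from 165 at 500 bp to 226 at 2000 bp, and from 187 to 188 with either replicate left out. The median of 31.9 was 29.2 at 500 bp and 35.4 at 2000 bp. Its ratio to all genes, 1.11, was between 1.06 and 1.09 with either replicate left out. The 88 genes with a nearer start became 22 with protein-coding starts only. The median log2 ratio of matched signals, -0.23, became -0.12 as replicate 1 over replicate 2 in the replicates' own lists, also chosen after seeing the data. In each replicate's own list, 10 of the 11 genes fell below the IDR threshold without replicate 1 and 2 without replicate 2. Such an IDR from 1 replicate does not compare the replicates, so these counts do not show disagreement between them.

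No paired analysis was possible because both samples belong to 1 group. With 2 replicates, no input and unknown depth, a missing summit is not evidence of no binding.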

Other observations

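With the limit widened to 2000 bp, 7 more microRNA genes came within reach of a conservative summit. The rise over all genes at that limit was not computed. The 7 were mir-72, with a signal of 158 at 1638 bp upstream, mir-53, with the mir-51 peak of 102 at 1532 bp downstream, mir-1819 (78.4), mir-2215 (74.1), mir-34 (73.7), mir-235 (70.8) and mir-71 (66.4). All 7 were chosen by this wider limit alone, and all 7 had a weaker ranked summit within 1000 bp, from 18.8 at mir-235 to 40.6 at mir-2215.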
